A study of Rattus norvegicus with 10 samples.

Results

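Nlrp3 and Ptk2b, 2 genes that act on the inflammasome, were followed across lung arrays of rats given lipopolysaccharide (LPS) and of control rats. They were taken from the Agilent catalogue probes of a custom array by the RefSeq accession each probe carries, NM_001191642 for Nlrp3 and NM_017318 for Ptk2b. Of 50 catalogue probes, 30 could be paired with a rat gene symbol, and these are 2 of them, each with a single probe, among 38804 probes other than controls. Total RNA from lung of male Wistar rats aged 8 weeks was labelled with Cy3, 1 sample per single-colour array. There were 5 LPS samples, numbered 1, 3, 5, 6 and 7, from rats in which septic shock was induced with LPS, and 5 control samples, numbered 15, 16, 17, 18 and 20. The sources used here give neither the dose, route and time of LPS nor the treatment of the controls. Nothing in the labels ties each sample to its own animal. A p-value here weighs a difference against the spread of these samples, which may be technical.

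NLRP3 is a cytosolic sensor that responds to many signs of infection and cell damage. It assembles with the adaptor ASC and with caspase-1 into an inflammasome, a complex that cuts the precursors of interleukin-1β and interleukin-18 to their active forms and opens gasdermin D pores in the cell membrane. In macrophages, signalling from the LPS receptor TLR4 through NF-κB first raises the amount of NLRP3 and of pro-interleukin-1β, a step called priming. A second signal, often loss of cell potassium, then starts assembly. Ptk2b encodes PYK2, a tyrosine kinase of the focal adhesion kinase family that is switched on by calcium, by integrins and by G protein-coupled receptors. It is known for its part in the movement of macrophages and neutrophils, and it can phosphorylate ASC.

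The arrays lay on 3 slides, as read from the scan stamps. Slide 1 held LPS replicates 6 and 7, slide 2 held control replicates 15 to 18, and slide 3 held LPS replicates 1, 3 and 5 with control replicate 20. For the arrays of slides 1 and 2, slide and group cannot be told apart. Control replicate 20 stood apart from the other controls for both genes, so each result is given with and without it. The 75th percentile of the spot signal, used to scale each array, ran from 265 to 333 on slide 2 and from 366 to 474 on slides 1 and 3. Of 36 marker genes listed for lung and blood cell types, 0 had a probe that could be named, so the tissue label was not checked by markers. In whole lung RNA, fewer cells of a type and less RNA per cell cannot be told apart.

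Nlrp3 was dim. Each array carried its probe on 10 spots, and the spots of an array are technical repeats of 1 sample. After background subtraction the mean signal per array, before scaling, was 11.1, 10.04, 13.4, 17.99 and 10.4 on LPS replicates 1, 3, 5, 6 and 7. It was 14.2, 10.3, 13.6, 14.3 and 5.47 on control replicates 15, 16, 17, 18 and 20. LPS replicate 6 was the brightest array and control replicate 20 the dimmest, and the remaining arrays of both groups covered the same span.

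The weakness of this signal can be read from several measures. The 153 negative control spots of an array had a median signal of 1.0 to 1.53, and Nlrp3 lay 7.67- to 13.8-fold above it on the LPS arrays and 3.58- to 14.0-fold on the control arrays. Against the floor of an array, the signal of its dimmest probe that was well above background, its multiple was 1.69 to 3.14 on LPS arrays. On control replicate 20 the multiple was 0.784, below that floor. Feature Extraction marked 91 of the 100 Nlrp3 spots as well above background, and 9 of the 10 spots on control replicate 20 were not. On every other array all 10 spots were. Nlrp3 therefore had a measured level on 5 of 5 LPS arrays and on 4 of 5 control arrays. Among all probes other than controls it ranked at the 11.8th to 17.4th percentile of signal on LPS arrays and at the 6.88th to 21.2nd on control arrays.

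Ptk2b was read well clear of background on every array. Its mean signal before scaling was 66.2, 128, 127, 201 and 140 on LPS replicates 1, 3, 5, 6 and 7. On control replicates 15, 16, 17, 18 and 20 it was 78.3, 79.9, 111, 84.0 and 45.9. LPS replicates 3, 5, 6 and 7 lay above every control before scaling, while LPS replicate 1 lay below 4 of the 5 controls. All 100 Ptk2b spots were well above background. The probe lay 11.7- to 35.01-fold above the floor on LPS arrays and 6.58- to 23.9-fold on control arrays. Its rank among all probes ran from the 47.9th to the 63.4th percentile in LPS lungs and from the 37.8th to the 61.3rd in controls.

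**Figure D1:**
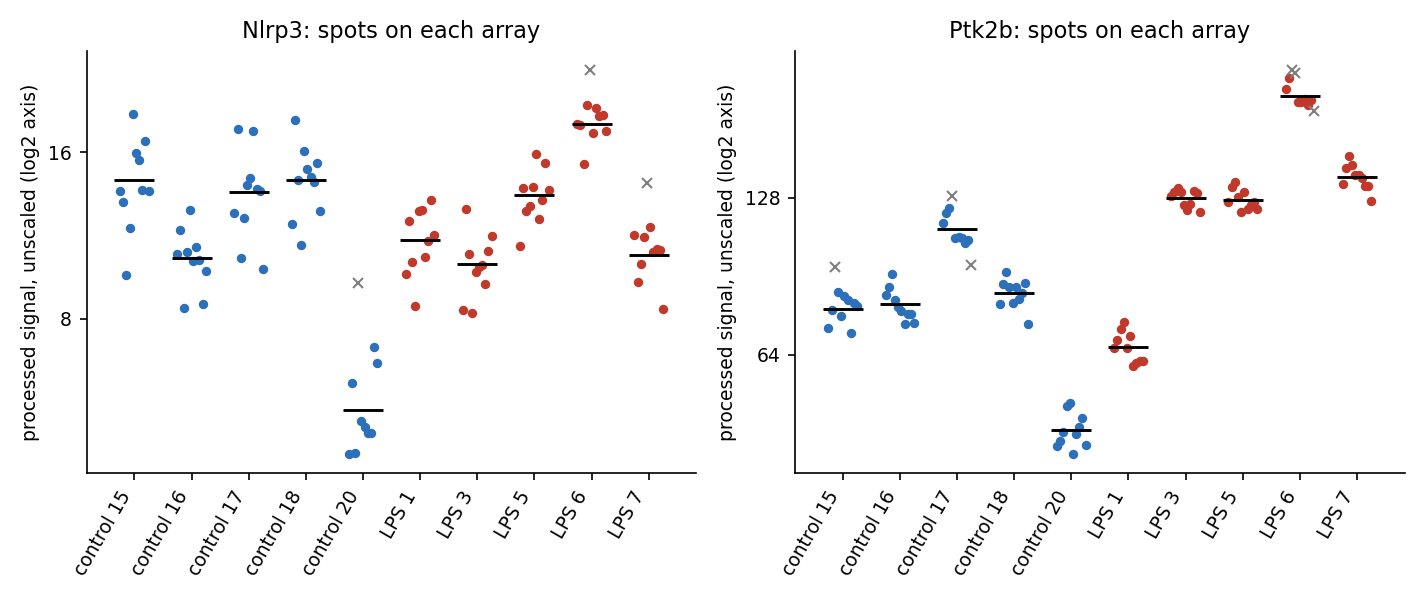
Processed signal of each of the 10 spots per array for Nlrp3 (left) and Ptk2b (right), before scaling between arrays, on log2 axes; blue points are control and red points LPS arrays, grey crosses are spots marked as outliers and left out, and bars are the means of the spots kept. All spots kept on control replicate 20 lie below all spots kept on the other 9 arrays, for both genes.

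The repeated spots gave the noise of reading the probe, which leaves out labelling, hybridisation and differences between samples. For Nlrp3 the coefficient of variation between spots was 7.01% to 13.4% on LPS arrays and 12.3% to 19.1% on control arrays. For Ptk2b it was 3.87% to 6.87% and 6.03% to 7.59%. With about 10 spots averaged, this spot noise alone would give array means of Nlrp3 an SD of 0.053 in LPS and 0.077 in control arrays on the log2 scale. The measured SD between arrays was 0.29 (n = 5) and 0.82 (n = 5). For Ptk2b the spot noise would give 0.024 and 0.031, against measured SDs of 0.44 (n = 5) and 0.71 (n = 5).

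In processed signal, the low value of control replicate 20 was shared by its spots. Its 9 Nlrp3 spots kept reached at most 7.10, and the lowest of the 88 spots kept on the other arrays was 8.20. Its 10 Ptk2b spots reached at most 51.7, and the lowest of the 84 others was 61.0. By median pixel less local background, unscaled, Nlrp3 was not set apart on this array. There it was at 6 on control replicate 20, 5.75 on control replicate 16 and 7 on LPS replicate 7. By that measure Ptk2b was still lowest on control replicate 20, at 44.25, with LPS replicate 1 next at 62.25. After scaling, control replicate 20 lay 1.5 below the mean of the other controls on the log2 scale for Ptk2b, and 2.22% of the 36020 tested probes were as low or lower there relative to the other controls. For Nlrp3 its measured value lay 1.82 below that mean, but it is under the floor of the array, and the floor itself lay 1.45 below. Control replicate 20 was the lowest of the 10 arrays for both, as it was for 17 of the 29 tested genes with a symbol (58.6%) and for 19.7% of all tested probes. Why this array lies apart was not tested.

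The main comparison asked whether the 2 transcripts differed between LPS and control lungs. Levels are log2 of the signal minus that of the array's 75th percentile, so that a value of 0 is as bright as that percentile. Nlrp3 was at -5.05, -5.34, -5.14, -4.72 and -5.50 on LPS replicates 1, 3, 5, 6 and 7. It was at -4.57, -4.70, -4.47, -4.34 and -6.33 on control replicates 15, 16, 17, 18 and 20. The 4 slide 2 controls lay above all 5 LPS arrays, by as little as -4.70 against -4.72, and control replicate 20 lay below them all.

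The Nlrp3 mean was -5.15 ± 0.29 (SD, n = 5) in LPS and -4.88 ± 0.82 (SD, n = 5) in control lungs, a log2 difference of -0.27 ± 0.33 (SE). The LPS level was 83% of the control level, and the 95% interval of the log2 difference ran from -0.99 to 0.45. Limma's moderated test gave an adjusted p of 0.545, and an exact 2-sided permutation test over the 252 assignments of the arrays gave p = 0.563, where the smallest possible was 0.00794. The difference was smaller than the spread between control arrays. Among all 36020 probes 33% were called different at an adjusted p under 0.05, with 18% lower and 15.1% higher in LPS lungs. The median log2 difference of all probes was -0.054.

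Ptk2b was at -2.47, -1.66, -1.89, -1.24 and -1.74 on the LPS replicates in the same order. The control values were -2.09, -1.73, -1.41, -1.77 and -3.25. Only LPS replicate 6 lay above every control, and only control replicate 20 lay below every LPS array. The mean was -1.80 ± 0.44 (SD, n = 5) in LPS and -2.05 ± 0.71 (SD, n = 5) in control lungs, a log2 difference of 0.25 ± 0.32 (SE) with a 95% interval from -0.44 to 0.94. The limma adjusted p was 0.558 and the exact permutation p, 2-sided, was 0.571. The groups overlapped, and the LPS level was 119% of the control level.

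**Figure D2:**
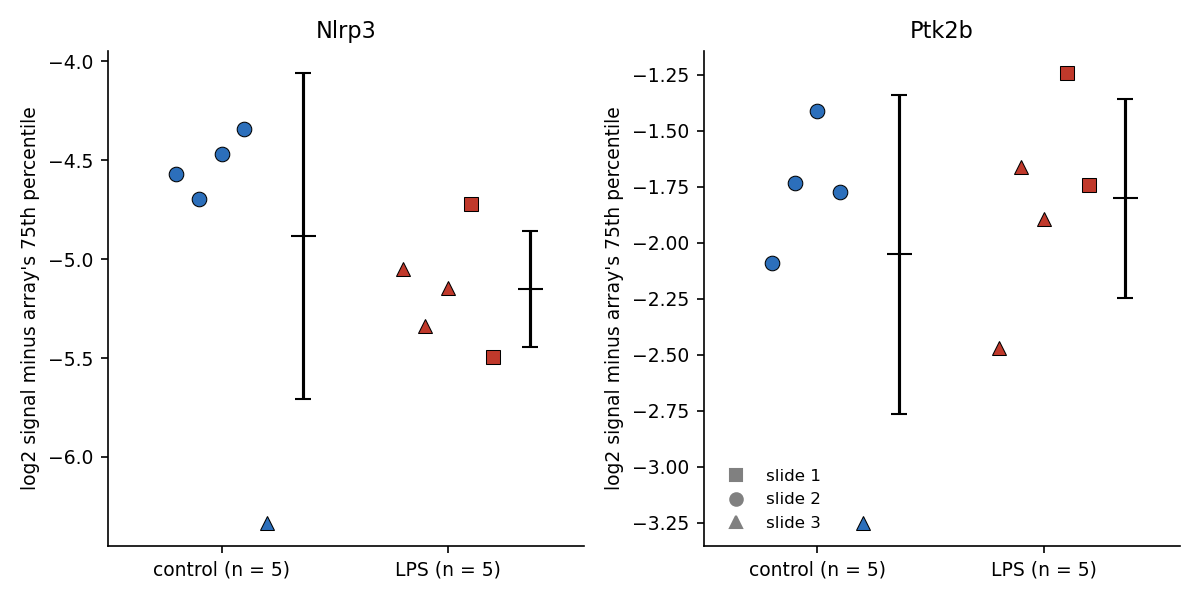
Log2 signal minus the array's 75th percentile for Nlrp3 (left) and Ptk2b (right), 1 point per array, with controls in blue and LPS in red, squares for slide 1, circles for slide 2 and triangles for slide 3; the line beside each group is its mean ± SD, n = 5. Control replicate 20, the blue triangle, is the lowest array in both panels, at -6.33 and -3.25.

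Both differences moved with control replicate 20. With it left out, every control lay on slide 2 and every LPS array on slides 1 and 3, so slide and group cannot be told apart in what follows. Nlrp3 was then lower on the LPS arrays, at 64.6% of the control level, a log2 difference of -0.63 with an SE of 0.15, a 95% interval from -0.96 to -0.30 and a limma adjusted p of 0.00488. The exact permutation p of this comparison of 5 with 4 arrays, 2-sided, was 0.0159. In that fit 54.6% of all probes were called, 29.8% of all tested as lower, so a lower value that passed was common there. On the same arrays Ptk2b differed by -0.049 ± 0.22 (SE), with a 95% interval from -0.53 to 0.44 and a limma adjusted p of 0.862. There its LPS mean of -1.80 and control mean of -1.75 differed by less than the SD of 0.28 among the slide 2 controls.

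The call for Nlrp3 without that array also depended on scaling. With quantile normalization the log2 difference was -0.46, with median centring -0.58 and in the authors' deposited table -0.44, with limma adjusted p values of 0.01, 0.00543 and 0.0113. With no scaling it was -0.068, with a limma adjusted p of 0.766, while the median of all probes rose by 0.49. Unscaled, the slide 2 controls ran from 10.3 to 14.3 and the LPS arrays from 10.04 to 17.99, so the groups overlapped. Its unscaled log2 means were 3.61 on LPS arrays and 3.68 on these controls. In the authors' deposited table LPS replicate 6, at 3.80, lay above control replicate 16, at 3.77, and with quantile normalization both were at 3.77, so the groups met or overlapped there too. By percentile of signal the groups also overlapped, as LPS replicate 6 ranked at 17.4 and the lowest slide 2 control, replicate 16, at 17.3. Ptk2b without control replicate 20 lay between -0.12 and -0.0026 in the scaled and background-corrected settings, and at 0.51 with no scaling, with limma adjusted p values from 0.0942 to 0.993.

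Within slide 3, where both groups were scanned together, both genes were higher on the LPS arrays than on control replicate 20. Nlrp3 had a mean of -5.18 ± 0.15 (SD, n = 3) on the LPS arrays against -6.33, a log2 difference of 1.16. When slide entered limma as a fixed block, its adjusted p was 0.028. Ptk2b had a mean of -2.01 ± 0.42 (SD, n = 3) against -3.25, a log2 difference of 1.25, with a limma adjusted p of 0.0452 under the block. With the block 9.94% of all probes were called, 5.25% of all tested as higher, and the median log2 difference was -0.02. Only control replicate 20 gives the control level in this fit, and it is assumed to vary like the other arrays, so these p-values may be too small. They belong to the block fit, which takes its spread from the arrays of all slides. They are not p-values of slide 3 alone, where there is 1 control.

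Nlrp3 was not well above background on that control array, so the size of its difference there is uncertain. Against the floor of control replicate 20, at -5.97, the 3 LPS arrays of slide 3 were 1.73-fold brighter. After normexp background correction, whose added offset of 50 compresses low signals, the difference with slide as a block was 0.18 for Nlrp3, at a limma adjusted p of 0.513. For Ptk2b it was 0.71, at a limma adjusted p of 0.0542. Both calls under the block were also lost with no scaling, where the log2 differences were 1.07 for Nlrp3 and 1.16 for Ptk2b at limma adjusted p values of 0.077 and 0.0991. With median centring that of Ptk2b was 1.26, at a limma adjusted p of 0.0504. As a random block, slide left a log2 difference that was 0.54 for Nlrp3 and 0.84 for Ptk2b, at limma adjusted p values of 0.365 and 0.138.

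**Figure D3:**
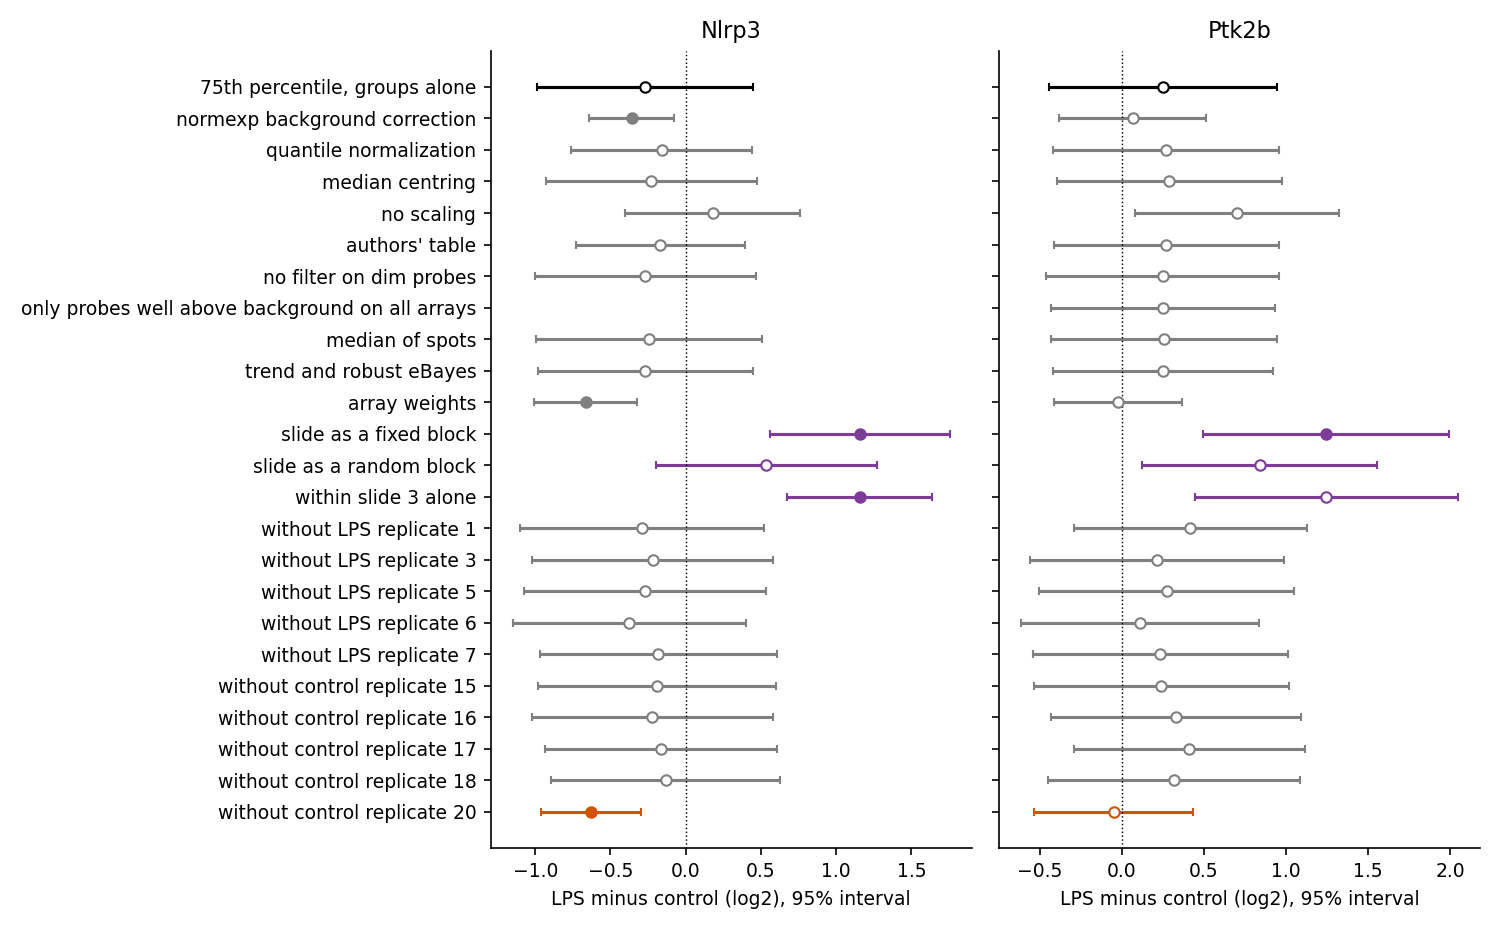
LPS minus control difference on the log2 scale for Nlrp3 (left) and Ptk2b (right) under each setting, as limma's estimate with its 95% interval; filled points have an adjusted p under 0.05, purple marks settings that use slide and orange the fit without control replicate 20. Nlrp3 lies at -0.63 without control replicate 20 and at 1.16 within slide 3, on opposite sides of 0, while Ptk2b lies at -0.049 and 1.25. The fit of slide 3 alone has 1 control, on which Nlrp3 was below the floor, so its filled Nlrp3 point is not read as a call.

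The ratio of the 2 probes within an array does not depend on how arrays are scaled by a constant. As log2 of Nlrp3 over Ptk2b it was -2.58, -3.68, -3.25, -3.48 and -3.75 on LPS replicates 1, 3, 5, 6 and 7. On control replicates 15, 16, 17, 18 and 20 it was -2.48, -2.96, -3.06, -2.57 and -3.08. LPS replicate 1 stood among the controls. The ratio of control replicate 20 rests on an Nlrp3 signal below the floor, and with Nlrp3 at that floor it was -2.71, above 2 of the other controls, so its place among the controls is not settled.

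The mean log2 ratio was -3.35 ± 0.47 (SD, n = 5) in LPS and -2.83 ± 0.28 (SD, n = 5) in control lungs, a difference of -0.52. The exact permutation test, 2-sided, gave p = 0.0635, which does not pass 0.05. The difference was -0.58 with control replicate 20 left out, at an exact permutation p of 0.0635 as well. Without LPS replicate 1 it was -0.71, all 4 remaining LPS arrays lay below all 5 controls, and the exact permutation p was 0.00794, the smallest these arrays allow. LPS replicate 1 was the only LPS array among the controls. Leaving it out therefore fixed this separation and this p, which are no test of a difference. Leaving out any other LPS array gave exact permutation p values from 0.0714 to 0.135. With Nlrp3 at the floor on control replicate 20 the difference was -0.59, at an exact permutation p of 0.0397, so whether the ratio passed 0.05 turned on a signal that was not well measured. That floor lies above the measured signal, so its use can only raise the control mean and widen this difference. Within slide 3 the difference in log2 ratio was -0.089 as measured and -0.46 with the floor. A change in this ratio would show that the 2 signals moved unequally and not which of them moved.

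Across the 10 arrays Nlrp3 and Ptk2b had a Pearson's r of 0.697 and a Spearman's rho of 0.297, with permutation p values of 0.0335 and 0.41 over 100000 resamples, or 0.067 and 0.41 adjusted over both. Both levels share each array's 75th percentile. Without the 2 arrays farthest from the median of Nlrp3, LPS replicate 7 and control replicate 20, r was 0.265. Without control replicate 20 alone it was 0.192. The relation therefore rested on that array, and it was not tested within a group.

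**Figure D4:**
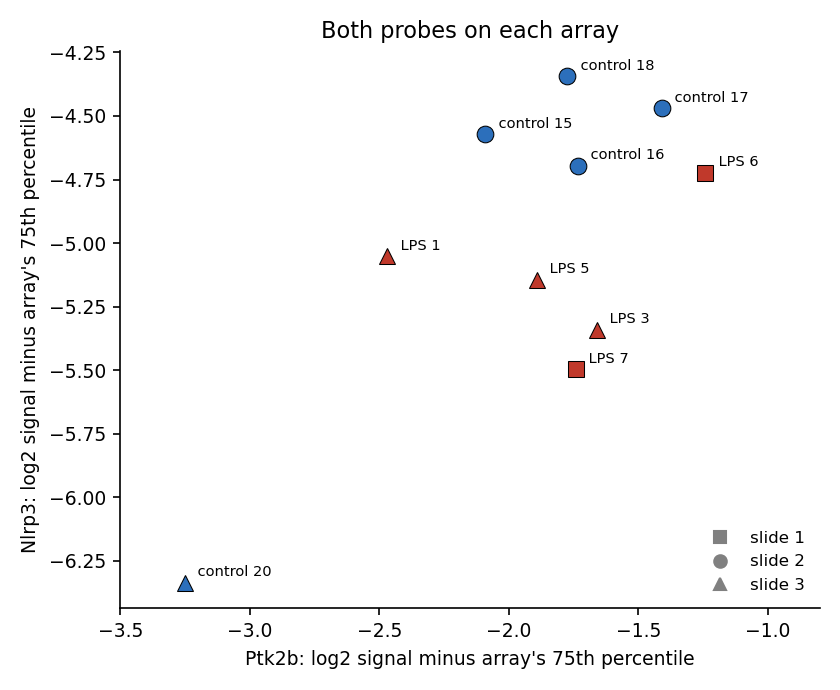
Scaled log2 signal of Nlrp3 (vertical) against Ptk2b (horizontal), 1 labelled point per array, with controls in blue and LPS in red, and squares, circles and triangles for slides 1, 2 and 3. Control replicate 20 lies alone at the lower left, and the other 9 arrays have r = 0.192.

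Of the 28 other tested genes with a symbol, those whose levels ran most like Nlrp3 over the 10 arrays were Pdk3, a kinase that switches off pyruvate dehydrogenase, with r = 0.988, Ndfip1, an adaptor of ubiquitin ligases, with r = 0.941, and Mex3c, an RNA-binding ubiquitin ligase, with r = 0.924. These values are a description, since the genes were picked as the highest of 28. Pdk3 put the 10 arrays in the same order as Nlrp3, with Spearman's rho = 1. Without control replicate 20 the r of Pdk3 was 0.978, that of Mex3c 0.924 and that of Ndfip1 0.845. Since Pdk3 was picked for its likeness to Nlrp3 on these arrays, its differences had to run much like those of Nlrp3 and are no separate support. Pdk3 differed by -0.60 on the log2 scale with that array left out and by 0.80 when slide was a fixed block, at limma adjusted p values of 0.0011 and 0.0339. Such a change of sign between these fits was seen for 15 of the 29 genes with a symbol (51.7%), and it was not counted over all probes. Control replicate 20 was the lowest array for 58.6% of those genes and for 19.7% of all tested probes. The median r with Nlrp3 was 0.594 over the genes with a symbol and 0.171 over all probes, and 405 of 36019 probes (1.12%) had an r over 0.9.

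Ptk2b was most like Pdcd10, an adaptor of the cerebral cavernous malformation complex of endothelial cells, with r = 0.838. Next came Enpp1, an enzyme that cleaves extracellular nucleotides, with r = 0.814, and Pop7, a protein of the RNA-cutting enzymes RNase P and RNase MRP, with r = 0.804. Over the 9 arrays other than control replicate 20 these values were 0.404, 0.722 and 0.526, so the likeness to Pdcd10 rested largely on that array. Only 79 probes (0.219%) had an r over 0.9 with Ptk2b.

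The partners of the 2 genes could not be followed. Of 24 listed inflammasome genes only Nlrp3, and of 20 listed genes of the focal adhesion kinase family and its partners only Ptk2b, had a probe with a symbol. Of 19 listed genes of TLR4 and NF-κB priming, 0 had one. Of these 2 members 0 rose and 0 fell in the comparison of all arrays by limma, and 0 had an unadjusted p under 0.05, with unadjusted p values of 0.432 and 0.446, beside 33% of all probes called. Pycard, Casp1, Il1b, Il18 and Gsdmd were not analysed here.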

How the data were processed

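The deposited scanner files hold spot intensity on a linear scale that the authors obtained with background subtraction and detrending in Feature Extraction (version 11.0.1.1), per the file headers. They were not normalized between arrays. The authors' deposited table holds log2 values per probe and sample, and the sources used here do not say how it was made. Across tested probes its r with the averaged log2 signal of the same array was 0.9995 to 0.9999. Outlier spots and the 126 probes they removed from an array were left out, log2 spot signals of a probe were averaged, and each array's 75th percentile was subtracted. A probe counted as well above background where at least 50% of its spots were. Of the rest, 2658 probes well above background on fewer than 5 arrays were left out, which left 36020 for limma (version 3.58.1, R version 4.3.3; lmFit and eBayes, 2-sided, LPS minus control) with Benjamini-Hochberg adjustment over all of them. The step was checked on simulated data. Single values were tested by exact permutation of the arrays. Precision is limited by how many arrays there are.

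The members, gene lists and tests were chosen with earlier results of these data known. Named genes were both members, the 3 genes with a symbol of highest Pearson's r with each, and list members with a named probe. The partners of Nlrp3 listed last in the report are named for what was not analysed. Symbols, and no coordinates, came from RefSeq's gene table of GRCr8, since the array design names build rn4. The alternatives were normexp (offset 50), quantile, median or no scaling, the authors' table, other filters, the median of spots, trend and robust eBayes, array weights, slide as a fixed or random block (statmod 1.5.0), slide 3 alone and leaving out each array. Normexp was run on median pixels and local background, and the other settings on the processed signal or the authors' table. Other scalings with the block or without control replicate 20, and a floor for Nlrp3 on that array (also in the ratio), were added after the values were seen. No protein sequence was used here.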

Additional observations from a re-analysis of the deposited data

Results flagged for a closer look

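Nlrp3 on control replicate 20 was set apart from its group. The gap from this array to the next lowest control was 0.823 of the range of the 5 controls, above the critical value of 0.71. The signal of Nlrp3 on that array was below its floor, so the size of this gap and that of the ratio are uncertain. The same measure for control replicate 20 was 0.63 for Ptk2b and 0.0392 for the log2 ratio of both probes. Of 6 sets of 5 values examined 1 was marked, and chance marks about 1 in 20 sets.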

How the results depend on the processing

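Nlrp3 kept its negative sign and stayed short of the threshold in 16 of 23 other settings. It passed with a negative difference after normexp correction (-0.36, limma adjusted p = 0.0401, while the median of all probes was -0.21), with array weights (-0.67, limma adjusted p = 0.00296) and without control replicate 20. In that order, these fits called 48.6%, 60.9% and 54.6% of all probes. Of all tested, 38.8%, 34.9% and 29.8% were called lower, so a lower value that passed was common in each. The sign of Nlrp3 turned with no scaling (0.18, against a median of 0.40 for all probes), with slide as a fixed block (1.16), as a random block (0.54) and on slide 3 alone (1.16). Slide 3 alone has 1 control, so only the size of that difference is read. Ptk2b kept its sign and side in 20 of 23 settings. It passed with the fixed block (1.25) and its sign turned with array weights (-0.022) and without control replicate 20. With no scaling it was at 0.70, with a limma adjusted p of 0.0659. Leaving out 1 array at a time gave -0.63 to -0.13 for Nlrp3, -0.049 to 0.42 for Ptk2b and -0.71 to -0.42 for the log2 ratio, whose exact permutation p ran from 0.00794 to 0.135. Without control replicate 20, Ptk2b turned to 0.51 with no scaling. With Nlrp3 on control replicate 20 at its floor, Nlrp3 differed by -0.34 and the log2 ratio by -0.59 (exact permutation p = 0.0397). That floor lies above the measured signal, so its use can only push both differences lower. Probes past the threshold numbered 11897, or 21951 with array weights, 3580 and 3127 with slide as a fixed and random block, 826 on slide 3 alone, and 7898 to 19654 with 1 array left out. Of the 3 genes most like Nlrp3, 2 or 3 stayed among the first 3 with 1 array left out and of those most like Ptk2b 1 to 3. The causes were not tested. Nlrp3 has no value among probes well above background on all arrays. For the ratio, the filters, eBayes settings, array weights and slide blocks were not run, since its exact test uses none of them. No paired analysis was possible because the groups share no replicate number.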

Other observations

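The promoter window of Nlrp3 in the RefSeq table of GRCr8, 300 bases around the gene's start, was searched on both strands for the letters TGANTCA, the AP-1 element, and for the NF-κB consensus. It held 0 matches to either, which says only that these letters are not in this window. Of 33469 windows of that length, 7.33% held the first and 7.51% the second. No window for Ptk2b was used here.

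The error that Feature Extraction attached to a spot was 12.4% to 16.5% of the signal for Nlrp3 on LPS arrays, 12.3% to 14.0% on the slide 2 controls and 29.96% on control replicate 20. For Ptk2b it was 10.02% to 10.5% on all 10 arrays. Outlier marks fell on 3 of 100 Nlrp3 spots and 6 of 100 Ptk2b spots, and 3 of the 6 were on LPS replicate 6.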
